A study of Columba livia with 12 samples.

Results

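The genes described here are 100 locus tags, modestly expressed in the flight muscle of racing pigeons (Columba livia), whose median level was lower in trained, raced birds than in untrained birds. RNA had been sequenced from the pectoral muscle of 12 birds, each giving 1 library. The 7 trained birds had been through flight training, were basketed the day before, were carried to a release point 300 km from the loft and were sampled after racing home. The other 5 were untrained, adult birds that had never been prepared for racing. All were bred and raised at the same private loft under the same feeding. Training, basketing, transport and the race went together in the trained group, so the design does not separate them, and no time between landing and sampling is given in the sources used here. Birds are named by group and library number. The labels list them as separate birds, so the spread between libraries includes the spread between birds.

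The members were chosen from the measured values. Counts were divided by the library's total over genes and multiplied by 1000000 (CPM), and the median CPM was taken in each group. Of 15392 locus tags, 2925 had a mean of the 2 medians from 5 to 20 CPM and a trained median of at least 1 CPM. The 100 with the lowest log2 difference, log2 of the trained median plus 0.5 CPM over the untrained median plus 0.5 CPM, are the members, numbered here from 1 (lowest) to 100. The difference between the groups therefore chose them. Values that set trained against untrained birds are given as descriptions, and the calls of a fit over all genes are given as counts from which nothing is read.

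The pectoralis is the muscle that pulls the wing down and powers flapping flight. In pigeons it is built mostly of red, fast fibres rich in mitochondria, which burn fat during long flights, with a minority of white fibres that rely on glycogen. Gene expression in skeletal muscle is known in birds and mammals to shift with training, with a single bout of exercise, and with fasting or stress. The files give the genes as locus tags without names, and 0 of the 15392 tags, so 0 of the 100 members, matched an identifier in a table of 22830 genes from a different assembly of this species. The members cannot be assigned to pathways, the muscle label could not be checked against muscle genes, and markers of other cell types could not be read. In whole muscle, fewer cells of a type and less RNA per cell cannot be told apart. Members are therefore described by level, by bird and by tag number.

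Library totals over genes ranged from 13611534 counts in trained bird 13 to 29169918 counts in untrained bird 3. In the members, untrained bird 5 lay away from the rest of its group. Whether its label is right cannot be settled from the files, so that name stands for the library labelled as untrained, and every untrained mean, median and count over 5 birds includes it. Trained bird 13 had the lowest share of its counts in the members. Some results that rest on either bird, but not all, are given with and without it. The trimmed-mean (TMM) scaling factor was 0.752 in trained bird 13 and between 0.98 and 1.07 in the other 11 birds.

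Across the members, the median CPM of the trained birds ran from 1.01 to 9.41 CPM, with a middle value of 3.60 CPM, and that of the untrained birds from 7.85 to 33.5 CPM, with a middle value of 17.3 CPM. The log2 difference ran from -3.52 to -1.44, with a median of -1.86 against -0.01 over all 11047 genes tested. It was under -3 in 6 members, from -3 to -2 in 35, from -2 to -1.5 in 47 and -1.5 or above in 12. Without the pseudocount, the untrained median was 2.84 to 16.3 times the trained median, and 4.02 times in the middle of the members. At the edge of the choice, members 98, 99 and 100 had log2 differences of -1.45, -1.45 and -1.44, and the next 3 tags in order, which were left out, had -1.43, -1.43 and -1.43. The choice therefore ended within a continuous run of values.

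The trained median had to reach 1 CPM. Member 2, the lowest on this measure, had 1.01 CPM, and 6 tags of the same level with trained medians of 0.0653 to 0.849 CPM were left out for that reason. A member's level was the mean of its 2 medians, and the members reached from 5.03 to 19.6 CPM on it. The closest tag below the level window that was otherwise low enough stood at 4.97 CPM with a log2 difference of -1.54, and the closest above it at 20.7 CPM with -2.13.

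The members made up a small part of each library. They held 0.0601%, 0.0555%, 0.0436%, 0.0676%, 0.0485%, 0.0336% and 0.0285% of the gene counts in trained birds 6, 7, 8, 9, 10, 11 and 13. In untrained birds 2, 3, 4, 5 and 12 they held 0.213%, 0.188%, 0.203%, 0.0582% and 0.194%. The trained values were all below those of untrained birds 2, 3, 4 and 12, and untrained bird 5 lay among the trained birds. The share averaged 0.0482% ± 0.0141 (SD, n = 7) over trained birds and 0.171% ± 0.0639 (SD, n = 5) over untrained birds, or 0.1995% ± 0.011 (SD, n = 4) over untrained birds without bird 5. Counting error was small beside these gaps: the 95% Wilson interval was 0.0276% to 0.0294% in trained bird 13, the smallest library, and 0.0572% to 0.0593% in untrained bird 5. Intervals cover counting error only and leave out the spread between birds. Sequenced reads are not independent molecules, so counting error may be larger than the intervals give.

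The median over members was 4.75, 4.24, 3.72, 4.51, 4.17, 2.78 and 2.28 CPM in trained birds 6, 7, 8, 9, 10, 11 and 13, and 19.6, 16.4, 18.3, 4.29 and 17.3 CPM in untrained birds 2, 3, 4, 5 and 12. The median of untrained bird 5 was above that of 5 trained birds and below that of the other 2. Of the 700 member values in trained birds, 643 were under 10 CPM, or 91.9%. Of the 400 values in untrained birds 2, 3, 4 and 12, 58 were under 10 CPM, or 14.5%. Untrained bird 5 had 87 of its 100 values under 10 CPM. The other 2825 tags of the same level window had medians of 10.6 to 11.4 CPM in the trained birds other than bird 13, 6.76 CPM in trained bird 13 and 10.01 to 10.9 CPM in the untrained birds.

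**Figure D1:**
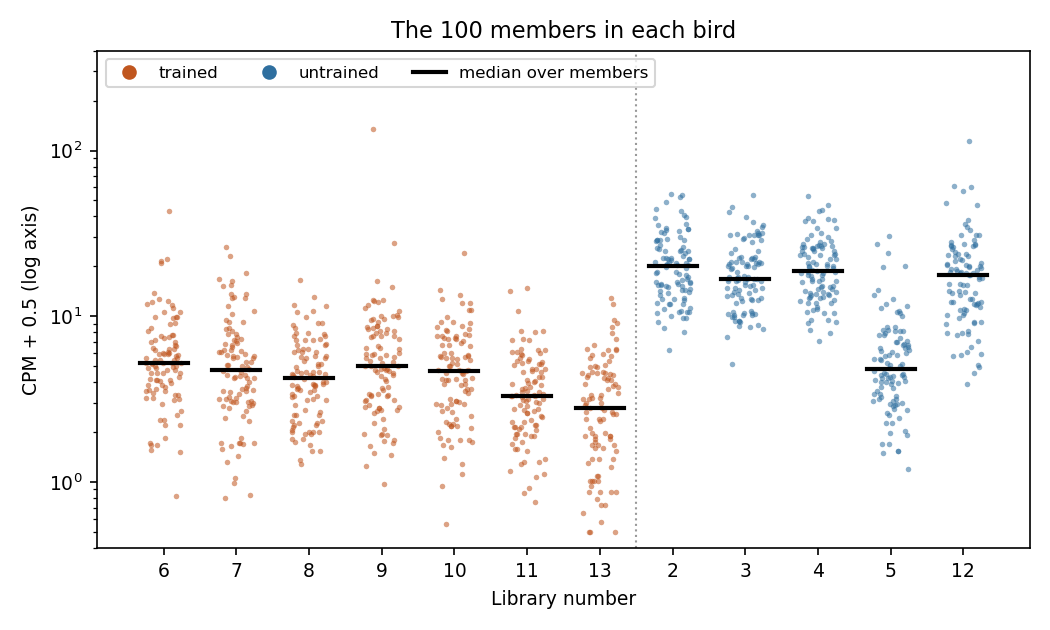
CPM plus 0.5 (log axis) of each of the 100 members (points) in each of 7 trained birds (left, orange) and 5 untrained birds (right, blue), with the median over members as a bar. The medians are 2.28 to 4.75 CPM in trained birds, 4.29 CPM in untrained bird 5 and 16.4 to 19.6 CPM in the other untrained birds.

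The heat map gives every member in every bird. In 27 of its rows at least 1 trained bird reached the lowest of untrained birds 2, 3, 4 and 12, and in the other 73 none did. Over all genes tested none did in 7.29%. The rule used this contrast, so nothing is read from the count.

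**Figure D2:**
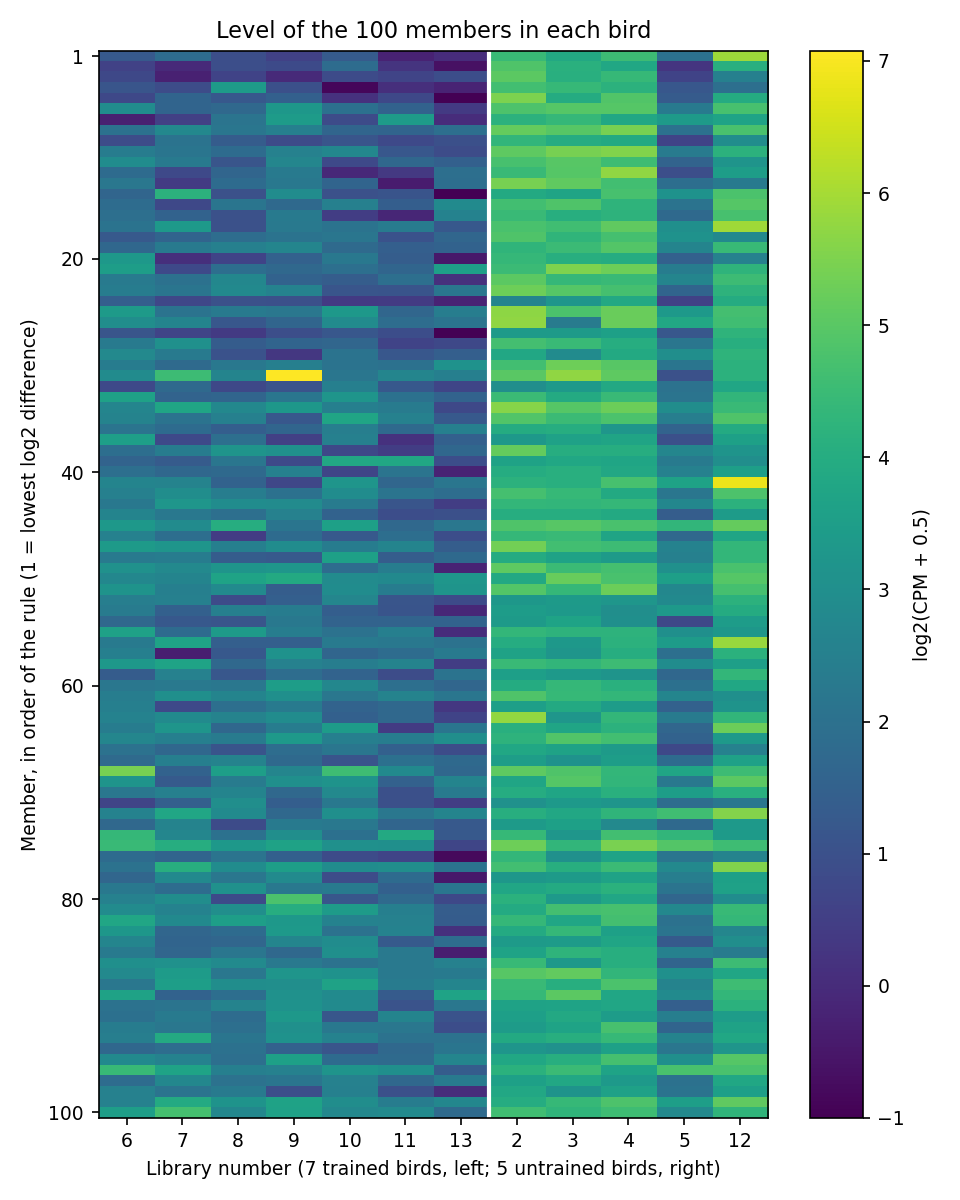
Level of the 100 members, as log2(CPM + 0.5), in 7 trained birds (left of the white line) and 5 untrained birds (right of it), with members from top to bottom in order of their log2 difference. The column of untrained bird 5 has the dark shades of the trained birds, and single bright cells mark trained bird 9 in member 31 and untrained bird 12 in member 41.

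Member 1, locus tag A306_00006367, had the lowest log2 difference, -3.52. Its lowest, median and highest trained values were 0.361, 1.44 and 3.13 CPM. In untrained birds 2, 3, 4, 5 and 12 it had 21.7, 14.3, 22.8, 3.55 and 59.5 CPM. The groups did not overlap, but untrained bird 5 lay within 1 CPM of the highest trained bird and untrained bird 12 far above the rest. It averaged 1.47 ± 0.964 CPM over trained birds (SD, n = 7) and 24.4 ± 21.1 CPM over untrained birds (SD, n = 5). The lowest trained value rested on 7 counts in trained bird 11 (95% Wilson interval 0.175 to 0.745 CPM), and the highest untrained value on 1071 counts.

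The next members in order had untrained bird 5 on the trained side more plainly. Member 2 had a lowest, median and highest value of 0.147, 1.01 and 3.13 CPM in trained birds, and 28.4, 17.0, 13.4, 0.69 and 16.6 CPM in untrained birds 2, 3, 4, 5 and 12. Member 3 had 0.335, 1.08 and 1.40 CPM as lowest, median and highest in trained birds, and 32.7, 16.8, 20.6, 1.03 and 5.28 CPM in untrained birds 2, 3, 4, 5 and 12. In both, untrained bird 5 was below the trained median and the other untrained birds were above every trained bird. Member 10 had 1.32, 3.94 and 6.21 CPM in trained birds, and 33.5, 42.2, 46.5, 4.58 and 17.7 CPM in untrained birds 2, 3, 4, 5 and 12. It shows the commonest arrangement, with 7 trained birds and untrained bird 5 at one level and the other 4 untrained birds above them.

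The member with the most counts, locus tag A306_00009406 (member 31), did not follow that arrangement in every bird. It held 7543 counts over the 12 libraries, where the next member held 4626. In trained birds 6, 7, 8, 9, 10, 11 and 13 it had 6.88, 22.5, 5.75, 134.5, 4.03, 5.83 and 5.07 CPM, and in untrained birds 2, 3, 4, 5 and 12 it had 31.6, 53.3, 33.3, 1.53 and 17.6 CPM. Trained bird 9 was the highest of all 12 birds and untrained bird 5 the lowest, so the groups overlapped at both ends. Its medians, 5.83 CPM in trained and 31.6 CPM in untrained birds, gave a log2 difference of -2.34, whereas its means were 26.4 ± 48.1 CPM (SD, n = 7) and 27.5 ± 19.3 CPM (SD, n = 5), with a log2 difference of -0.06. Trained bird 9 alone gave 3416 of the 7543 counts. The lower level of this tag in trained birds thus held for the median and not for the mean.

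Trained bird 9 was also high in a tag close by in number. A306_00009404, whose number is 2 below and which is no member, had 6.34 CPM in trained bird 9 and 0.335 to 1.84 CPM in the other trained birds, against 0 to 0.111 CPM in untrained birds. Trained bird 9 was the highest trained bird in 4 of the 17 tags within 8 numbers of A306_00009406, that tag included. It was the highest trained bird in 12.6% of the window tags that are no members, so nothing is read from this count. Positions of the tags on chromosomes were not used here, so these tags are close in number, which need not mean close in the genome.

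Untrained bird 5 lay inside the range of the 7 trained birds in 78 members, above it in 15 and below it in 7. Over all genes tested it lay inside that range in 84.2%, above it in 9.06% and below it in 6.75%, so the members' count is no higher than the background. It was the lowest untrained bird in 90 members, against 29.2% of all genes tested, and lay inside the range of the other 4 untrained birds in 9, against 38.8%. The rule used the untrained median, so nothing is read from these shares. For scale, each trained bird lay inside the range of the other 6 trained birds in 50 (trained bird 13) to 82 (trained bird 8) of the members. A range grows with the number of birds, here 7 for untrained bird 5 and 6 for each trained bird, so these counts are not directly comparable. Against the trained median, untrained bird 5 was above it in 61 members and below it in 39. Its position was also placed on a line from the median of the other 4 untrained birds (0) to the trained median (1), on the log2(CPM + 0.5) scale. The median position over members was 0.93, with quartiles of 0.66 and 1.08, against 0.88, with quartiles of 0.30 and 1.47, over all genes tested. It was over 0.75 in 66 members and at most 0.25 in 6, against 57.1% and 23.9% of all genes tested. The rule set the 2 ends of this line apart in the members. Over all genes tested, with a median log2 difference of -0.01, the ends can lie close together, and the position is then unstable and of either sign. The values over all genes are therefore no like background, and nothing is read from the comparison.

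The 6 members in which the position of untrained bird 5 was at most 0.25 were members 7, 53, 72, 74, 75 and 96. In member 7, at 10.1 CPM, it was still below the other 4 untrained birds and inside the trained range. By range, untrained bird 5 lay inside that of the other 4 untrained birds in 9 members and above it in 1. In member 96 the trained birds had 2.06, 7.68 and 21.1 CPM as lowest, median and highest, and untrained bird 5 was the highest of its group with 26.6 CPM, beside 17.5, 22.0, 12.5 and 26.4 CPM in untrained birds 2, 3, 4 and 12. In member 75 the trained birds had 1.10, 9.41 and 21.7 CPM, and untrained bird 5 had 29.8 CPM, beside 38.7, 19.5, 43.0 and 23.3 CPM in untrained birds 2, 3, 4 and 12. In both, the highest trained bird reached the lowest untrained ones. In member 72 the trained birds had 2.84, 5.73 and 13.2 CPM, and untrained bird 5 had 23.5 CPM, beside 16.3, 13.9, 19.1 and 47.6 CPM in untrained birds 2, 3, 4 and 12. There all 7 trained birds were below all 5 untrained birds, if narrowly.

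**Figure D3:**
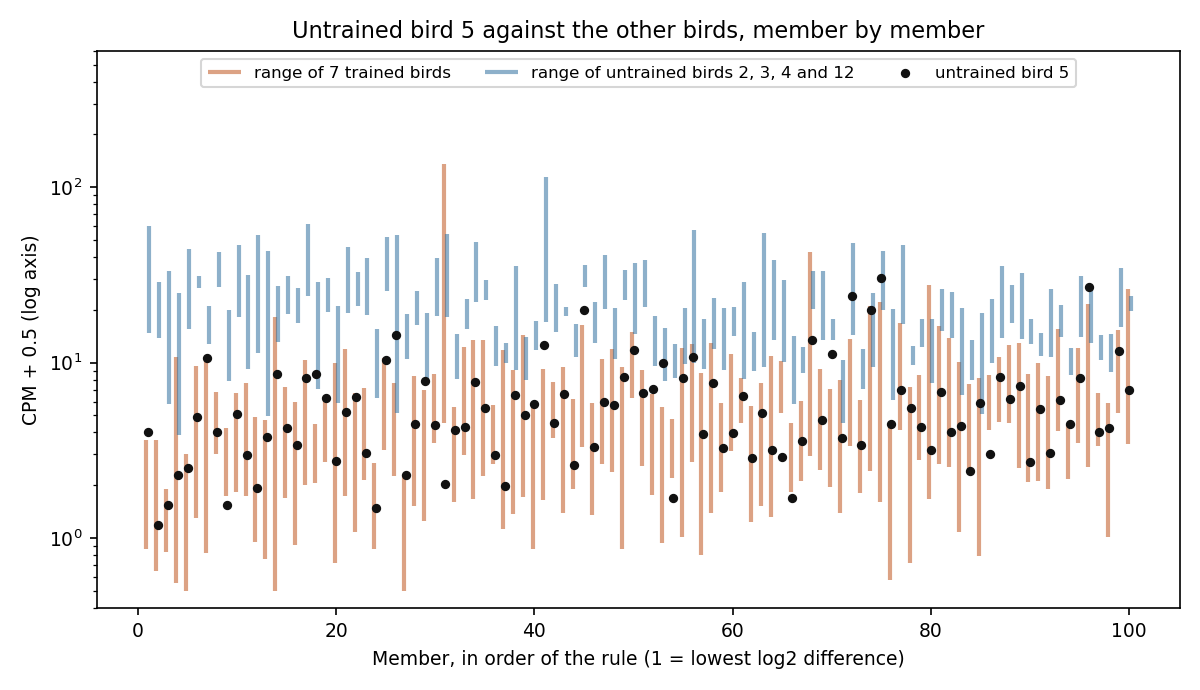
CPM plus 0.5 (log axis) of each member, in order of its log2 difference, as the range of the 7 trained birds (orange bar), the range of untrained birds 2, 3, 4 and 12 (blue bar) and the value of untrained bird 5 (black point). The point falls on the orange bar in 78 members and above it in 15.

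With all birds, the trained values were all below the untrained values in 12 members, against 1.42% of all genes tested. Leaving out untrained bird 5, they were in 73 members, against 7.29% of all genes tested. The rule used this contrast, so nothing is read from either count. In the other 27 members, overlap without untrained bird 5 came from 1 trained bird in 17 and from 2 or 3 trained birds in 10. Trained birds 6 and 7 reached the lowest of the other untrained birds in 10 members each, trained bird 9 in 7, trained bird 10 in 6, trained bird 8 in 3, trained bird 11 in 2 and trained bird 13 in 0. The untrained bird they reached was bird 12 in 13 of the 27 members, bird 3 in 8, and birds 2 and 4 in 3 each.

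All 100 members had enough counts to be tested in a fit of all 11047 genes (edgeR quasi-likelihood test, Benjamini-Hochberg adjusted p under 0.05). It called 65 of them lower in trained birds, against 3.48% of all genes called lower. Since the rule used the same contrast, this share is only a description of how many members also stood out against the spread between birds. The count depended on single birds. It was 85 without untrained bird 5 (7.15% of all genes called lower) and 67 without trained bird 13 (5.49%), but 20, 18, 19 and 32 without untrained birds 2, 3, 4 and 12 (0.984%, 0.761%, 0.787% and 1.3%), and 33 without trained bird 11 (1.41%). Without untrained bird 5 and trained bird 13 together it was 89 (12.3%). Other tools and settings called 86 members lower with DESeq2 (6.81% of all genes), 96 with limma-voom and sample weights (15.4%), 66 with DESeq2's size factors in edgeR (3.46%) and 60 with no count filter (2.52%). With a minimum of 10 counts in every library, 76 members were tested and 55 called (4.01%).

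Within the trained group the members varied widely. On the log2(CPM + 0.5) scale the median SD over members was 0.80 among the 7 trained birds and 0.45 among untrained birds 2, 3, 4 and 12, or 0.96 among all 5 untrained birds. Over the other 2825 tags of the window the medians were 0.56, 0.31 and 0.38. Without trained bird 13 the median SD among trained birds was 0.70 in the members and 0.42 in the other tags. The members' trained levels were lower than those of the other window tags, and the part of counting error and level in this difference was not tested. Lists chosen on the same medians, described further below, had like spreads. Among trained birds the median SD was 0.78 (0.65 without bird 13) in the tags above the window with the lowest log2 differences. It was 0.90 (0.67 without bird 13) in the window tags with the highest. Among untrained birds 2, 3, 4 and 12 these lists had 0.43 and 0.47. The wide trained spread was thus not particular to the members. The highest trained value, plus 0.5 CPM, was 4.65 times the lowest in the middle of the members, and the same ratio among untrained birds 2, 3, 4 and 12 was 2.06. Such a ratio grows with the number of birds, here 7 against 4, so the 2 values are not directly comparable. In the other window tags they were 3.05 and 1.61. They were 4.72 and 1.97 in the tags above the window with the lowest log2 differences, and 6.50 and 2.08 in the window tags with the highest.

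The trained birds differed in how low they were. Trained bird 13 was the lowest trained bird in 41 members and trained bird 11 in 24. Trained birds 9, 7, 6 and 10 were the highest in 23, 22, 20 and 16 members, and trained bird 11 in 0. In the other window tags trained bird 13 was the lowest trained bird in 50.7% and trained bird 11 in 10.6%. Scaled by TMM, the median over members was 3.03 CPM in trained bird 13 and 2.77 CPM in trained bird 11, so that bird 11 became the lowest of the trained birds. Trained bird 13 had 0 counts in members 5, 14 and 27, which allows up to 0.22 CPM in each (3 counts). In the other 11 birds every member had at least 1 count.

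Single trained birds were high in some members. Member 7 had 10.3 CPM in trained bird 9 and 10.3 CPM in trained bird 11 but 0.32 to 3.85 CPM in the other trained birds, against 17.7, 20.5, 13.6, 10.1 and 12.3 CPM in untrained birds 2, 3, 4, 5 and 12. Member 14 had 17.7 CPM in trained bird 7 and 0 CPM in trained bird 13, with a trained median of 1.65 CPM, against 14.5, 12.7, 25.9, 8.13 and 26.9 CPM in untrained birds 2, 3, 4, 5 and 12. Member 68 had 42.5 and 23.5 CPM in trained birds 6 and 10 and 2.42 to 11.04 CPM in the other trained birds, against 32.95, 28.3, 19.7, 12.95 and 22.8 CPM in untrained birds 2, 3, 4, 5 and 12. In member 7 the high trained birds reached the level of untrained bird 5 and of no other untrained bird, whereas in members 14 and 68 they passed 1 or more of the others. A trained value above 20 CPM occurred in 7 members, 9 times in all.

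Other members were even across the trained birds. Member 94 had the smallest spread among them, an SD of 0.34 on the log2 scale, with a lowest, median and highest trained value of 1.68, 2.84 and 3.89 CPM. Its untrained values were 8.79, 8.06, 11.6, 3.99 and 8.72 CPM in birds 2, 3, 4, 5 and 12. Member 61, next in evenness, also with an SD of 0.34, had 4.04, 5.57 and 7.64 CPM in trained birds, and 28.4, 20.7, 20.05, 5.96 and 7.61 CPM in untrained birds 2, 3, 4, 5 and 12. In member 94 the groups did not overlap, although untrained bird 5 lay just above the highest trained bird, and in member 61 untrained birds 5 and 12 both fell inside the trained range.

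Untrained bird 12 differed from untrained birds 2, 3 and 4 in some members, in either direction. On the log2(CPM + 0.5) scale it was more than 2-fold below the median of untrained birds 2, 3 and 4 in 19 members and more than 2-fold above it in 8. In the other window tags these shares were 3.75% and 4.28%. The rule used the untrained median, to which untrained bird 12 belongs, so nothing is read from these shares. Over all members its median log2 difference from those birds was -0.15, with a range of -2.81 to 2.64. Member 41 was at the upper end, with 1.14, 3.97 and 8.72 CPM as lowest, median and highest in trained birds, and 17.9, 16.6, 25.9, 12.1 and 113.9 CPM in untrained birds 2, 3, 4, 5 and 12. Member 56 was next, with 2.21, 4.18 and 12.3 CPM in trained birds, and 15.6, 9.39, 17.6, 10.2 and 56.5 CPM in untrained birds 2, 3, 4, 5 and 12. In both, untrained bird 12 stood well above all other birds, and untrained bird 5 above or among the upper trained ones.

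In other members untrained bird 12 was near the trained birds. Member 13 had 0.258, 3.01 and 4.21 CPM as lowest, median and highest in trained birds, and 42.7, 34.3, 24.2, 3.25 and 4.44 CPM in untrained birds 2, 3, 4, 5 and 12. Member 4 had 0.0559, 1.34 and 10.3 CPM in trained birds, and 24.5, 20.7, 17.9, 1.77 and 3.39 CPM in untrained birds 2, 3, 4, 5 and 12. In both, untrained birds 2, 3 and 4 alone were clearly above the trained birds. Over all members, the lowest of the untrained birds other than bird 5 was bird 12 in 41, bird 3 in 30, bird 4 in 17 and bird 2 in 12. No share over all genes is given for these counts, and the rule used the untrained median, so nothing is read from them.

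**Figure D4:**
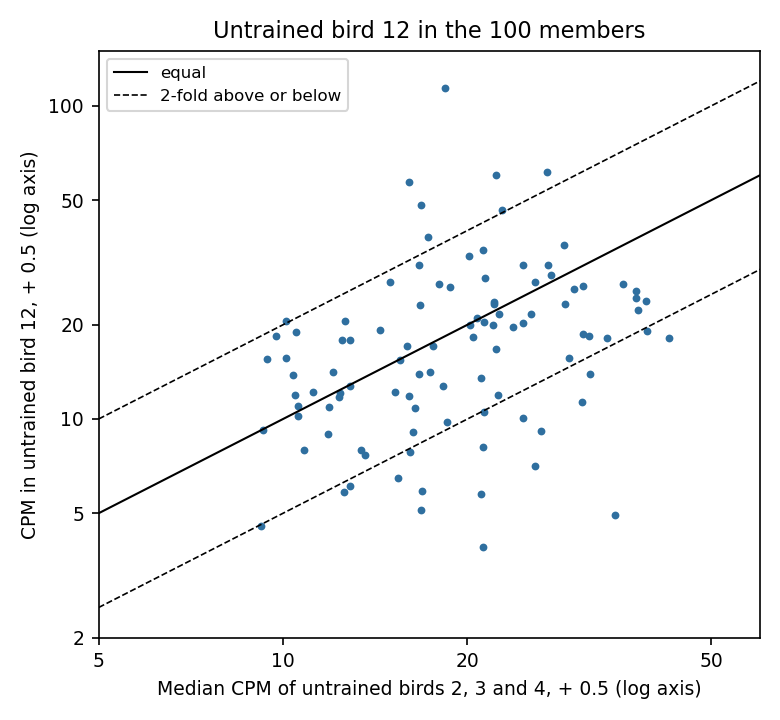
CPM plus 0.5 in untrained bird 12 against the median CPM of untrained birds 2, 3 and 4 plus 0.5 (both log axes), 1 point per member, with lines of equality (solid) and of 2-fold difference (dashed). Above the upper dashed line are 8 members and below the lower one are 19.

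Like lists were used for comparison, without a test of any difference. The 100 tags of the same window with the highest log2 difference reached 1.26 at their 100th place, with a median of 1.64. Of the 2925 tags of the window, 204 were at or below -1 and 182 at or above 1. In those higher tags untrained bird 5 was the highest untrained bird in 80, against 32.1% of all genes tested, and lay inside the trained range in 83. The 100 tags with the lowest log2 difference among 5176 tags above the window, with a median of -2.01, had untrained bird 5 as the lowest untrained bird in 90 and inside the trained range in 80. Over all genes tested untrained bird 5 was the lowest untrained bird in 29.2%. These counts inside the trained range, like that of the members, are near or below the 84.2% of all genes tested, and nothing is read from them. Both lists were chosen on the same medians, so nothing is read from the counts of 80 and 90 either. Untrained bird 12 was more than 2-fold below the median of untrained birds 2, 3 and 4 in 19 of those better expressed tags as well, and more than 2-fold above it in 8. In the window tags with the highest log2 difference it was below in 6 and above in 17.

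The members were scattered over the tag numbers, from 365 to 14966, with a median gap of 113 numbers between neighbouring members. In 5 cases neighbouring members were at most 5 numbers apart, and 2 pairs had consecutive numbers, members 1 and 72 and members 17 and 100. Among the 100 window tags with the highest log2 difference, 6 pairs were at most 5 numbers apart and 0 were consecutive. The highest trained bird was bird 7 in members 1, 72, 17 and 100, at 3.13, 13.2, 9.79 and 25.6 CPM. It was the highest trained bird in 22 of all members and in 17.1% of the other window tags, so nothing is read from this. In members 1 and 72 untrained bird 12 was the highest of all birds in both, at 59.5 and 47.6 CPM, whereas untrained bird 5 was low in the first, at 3.55 CPM, and not in the second, at 23.5 CPM. Member 17 had 60.9 CPM in untrained bird 12 and a log2 difference of -2.66, and member 100 had 19.2 CPM in that bird and -1.44. The 141 tags next in number to a member, no members themselves and with a level of at least 1 CPM, had a median log2 difference of -0.14 and were at or below -1 in 9.22%, beside -0.01 and 7.08% over all 10250 tags of that level.

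A member held between 1072 and 7543 counts over the 12 libraries, with a median of 2385. In a single library the median count of a member was 31 in trained bird 13 and 54 to 114.5 in the other trained birds, and 87 in untrained bird 5 and 312 to 477.5 in the other untrained birds. Levels of the members in trained birds thus carried more counting error than those in the untrained birds other than bird 5, and values under about 1 CPM, which occurred in 24 members of trained bird 13 and 10 of trained bird 11, rest on few counts.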

How the data were processed

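Counts per locus tag, whole and not normalized, were deposited for each library separately. They came from total RNA of the pectoral muscle and TruSeq libraries, per the labels' protocols. STAR and HTSeq, with bcl2fastq 2.20, FastQC 0.11.5 and DESeq2, are named in the submitters' processing notes, without roles. The strand setting, build and annotation are not given in the sources used. Reads from overlapping or antisense genes may therefore have been set aside or counted for the wrong gene. The 5 summary rows of each file, 24% to 27% of its reads, were left out.

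CPM, medians and the choice of members were computed in Python 3.11.15 with pandas 2.3.3 and intervals with scipy 1.17.1. All genes were fitted together with edgeR 4.0.16 (R 4.3.3): filterByExpr, TMM, robust dispersions, quasi-likelihood F test, two-sided, Benjamini-Hochberg adjustment, threshold 0.05. DESeq2 1.42.0 and limma 3.58.1 served as alternatives. The rule and the edgeR fit were run on simulated counts only to check that they were computed as described. The simulated counts for the rule held no spread between birds, so nothing is read from them about these libraries. Group and library number came from the sample titles. Tags given by name are the member with the lowest log2 difference and the one with the most counts. A306_00009404 was added after its values were seen, as were the members described singly by number. The members and lists were chosen with earlier results of these data known. Library totals of 13611534 to 29169918 counts limit counting error only.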

Additional observations from a re-analysis of the deposited data

Results flagged for a closer look

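An extreme-value test (Dixon's, 95% critical value) was applied within each group to the share of counts in the members, the median over the members and the 2 tags given by name. Chance picks out about 1 in 20 groups where the values were not chosen from the same data. Untrained bird 5 was picked out for its share, 0.0582% against 0.188% to 0.213% in the rest of its group, and for the median over the members, 4.29 CPM against 16.4 to 19.6 CPM. Both describe the same counts. The members were chosen on the untrained median, which a single low bird need not lower much. The rate of 1 in 20 therefore does not hold for this bird's results, which are descriptions only. Trained bird 9 was picked out for A306_00009406 on plain CPM, at 134.5 CPM against 4.03 to 22.5 CPM in the other trained birds. On the log scale of the next paragraph, the test picked out trained bird 9 as high in 0 members, so not in A306_00009406. That tag was chosen as the member with the most counts, and 3416 of its 7543 counts came from trained bird 9, so the bird's high value had a part in the choice of the tag and the result is a description only.

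Applied to each member on the log2(CPM + 0.5) scale, the test picked out untrained bird 5 as low in 23 of the 100 members and no other untrained bird. In the other 2825 tags of the window it picked out untrained bird 5 as low in 2.19% and as high in 2.83%. The members were chosen for a high untrained median, so an outlying untrained bird among them would mostly be low. Nothing is read from these shares. Among trained birds it picked out trained bird 13 as low in 4 members, trained bird 7 as high in 2 and trained bird 9 as low in 1, where in the other window tags trained bird 13 was low in 17.3%.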

How the results depend on the processing

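Of the 100 members, 93 were chosen again with TMM-scaled libraries, 75 with group means, 94 with a pseudocount of 2 CPM, 94 without the floor on the trained median, 81 to 90 with 1 library left out and 79 without untrained bird 5 and trained bird 13. The median log2 difference over members was -1.86 with TMM, -1.66 with means, -1.56 with the larger pseudocount, -1.97 to -1.76 with 1 library left out and -1.89 without both birds. It was negative in all 100 members each time, as their choice made nearly certain. The log2 difference of A306_00009406, -2.34 with medians, was -0.06 with means. The alternatives for single tags, and leaving out libraries for the shares, were added after seeing the data.

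The number of members called lower was 86 with DESeq2, 96 with limma-voom and sample weights, 66 with DESeq2's size factors in edgeR, 60 with no count filter, 55 of 76 tested with a minimum of 10 counts in every library, and 18 to 85 with 1 library left out. Over all genes, 384 were called lower, and 752 with DESeq2, 1698 with limma-voom, 1375 without untrained bird 5 and trained bird 13, and 85 to 801 with 1 library left out. Members with groups that did not overlap numbered 12 with either scaling and 73 without both birds. With 1 library left out they numbered 73 without untrained bird 5 and 12 to 16 without any other bird. On plain CPM, the trained values were all below the untrained values in 1.42% of all genes tested, and in 7.29% without untrained bird 5. No such share was computed for the other settings, and nothing is read from any of these counts. The mean share of counts was 0.0668% in trained and 0.251% in untrained birds with the 50 most abundant genes left out of the total, which is a smaller total by construction; with 1 library left out it was 0.045% to 0.0515% in trained and 0.161% to 0.2% in untrained birds. For the other changes the cause was not tested. No paired analysis was possible because the labels match no trained bird to an untrained bird. Depth limits values under about 1 CPM.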
